A study of Mus musculus with 6 samples.

Results

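The replication-dependent histone genes make the mRNAs for the histones that package newly copied DNA. They were taken here as every gene of the deposited count table whose GRCm38 symbol begins with Hist1h, Hist2h, Hist3h or Hist4h, without symbols ending in -ps. There were 65 such genes among the 33084 in the table, with 6 of type H1, 19 of H2A, 16 of H2B, 11 of H3 and 13 of H4. By cluster, 54 belonged to Hist1 on chromosome 13, 8 to Hist2 on chromosome 3, 2 to Hist3 on chromosome 11 and 1 to Hist4 on chromosome 6. The gene group was singled out because its level in mutants was known, so the comparison of genotypes below is a description and carries no test of the group.

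The study measured RNA from the forebrains of mouse embryos at 15.5 days post coitum, with 3 mutant libraries of the genotype Dyrk1a<DlxCre/+>, which the sample titles write Dyrk1a<Dlx/+>, and 3 control libraries (wt). In the mutants, DYRK1A, a protein kinase known for its part in the exit of neural progenitors from the cycle, was inactivated conditionally in the Dlx5 domain, the territory that gives rise to GABAergic neurons of the ventral forebrain. The genotype is written with 1 wild-type allele. The whole forebrain was sampled, so cells outside the Dlx5 domain were in every library. The labels do not say whether the controls carried the Cre driver, and an effect of the driver and one of Dyrk1a cannot be told apart. Nor do they give the litter of any embryo, so errors measure the spread between these samples, which may be partly technical. In bulk RNA, fewer cells of a type and less RNA per cell cannot be told apart.

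Histones H2A, H2B, H3 and H4 form the protein core around which DNA is wound, and H1 binds the linker DNA between cores. Their replication-dependent genes lie in clusters, have no introns in their coding part and are transcribed mainly in S phase, with NPAT as a coactivator. Their mRNAs end not in a poly(A) tail but in a conserved stem-loop, which SLBP binds and which guides 3′ end cutting, translation and rapid decay when DNA synthesis stops. In the embryonic forebrain these mRNAs are therefore expected mostly in dividing progenitors.

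The stem-loop is shown first because it is the feature that sets these mRNAs apart and because the genes differ in it. A stem of 6 perfectly matched base pairs around a loop of 4 bases was found past the stop codon in 38 of the 56 genes that passed the filter on low counts. The sequences are from GENCODE transcripts on GRCm38, written 5′ to 3′ on the gene's strand, with the 2 arms of the stem in capitals.
Hist1h3b, chr13:23752815-23752840, plus strand: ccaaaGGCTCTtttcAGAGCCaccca
Hist1h2bb, chr13:23747198-23747223, plus strand: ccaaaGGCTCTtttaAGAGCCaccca
Hist1h3g, chr13:23535884-23535909, plus strand: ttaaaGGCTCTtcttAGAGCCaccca
Hist1h4h, chr13:23531453-23531478, plus strand: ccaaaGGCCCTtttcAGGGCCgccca
Hist1h4a, chr13:23760795-23760820, minus strand: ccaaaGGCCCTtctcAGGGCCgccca
Hist1h4j, chr13:21735432-21735457, plus strand: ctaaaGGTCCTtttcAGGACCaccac

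The stem and loop of Hist1h3b occurred in 20 tested genes, and those of Hist1h2bb, with another last base of the loop, in 5. The GGCCCT arm of Hist1h4h was shared by 9 tested H4 genes in 3 loop forms, and the GGTCCT arm of Hist1h4j by 2. The 20 genes with the Hist1h3b form stood at a median of 0.55 in log2 fold change, mutant over control, and the 6 with the Hist1h4h form at 0.61. The 5 with the Hist1h2bb form had 0.56 and the 2 with the Hist1h4j form had 0.75. The median of every form found thus lay above 0. The GGCCCT and GGTCCT arms were found in H4 genes and the GGCTCT arm in the other types, so stem-loop arm and type cannot be told apart for H4.

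Promoter elements also differed in frequency between types. RefSeq promoter windows on GRCm38.p6, from 250 bases before to 50 after the start, could be matched to 58 of the 65 genes and were searched on both strands for 5 motifs. Short stretches are printed on the gene's strand to show elements that were frequent in H4, in H1, and in a part of the H2A and H2B promoters, with the motif in capitals.
Hist1h4d, GGTCCG of the H4 site II, chr13:23581512-23581535, plus strand: tttcaaacaGGTCCGcattggtat
Hist4h4, the same element on another chromosome, chr6:136804449-136804472, minus strand: tttcaatcaGGTCCGctcccagga
Hist1h1c, AAACACA of the H1 box, chr13:23738687-23738709, plus strand: agtgtaacAAACACAagttgggc
Hist1h1e, AAACACA of the H1 box, chr13:23622659-23622681, minus strand: ggtgtaacAAACACAactccgca
Hist1h2bb, octamer ATTTGCAT, chr13:23746636-23746659, plus strand: agtctcttATTTGCATaaagcctt
Hist2h2bb, octamer ATTTGCAT, chr3:96269644-96269667, plus strand: gaaacctcATTTGCATacaagctc

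GGTCCG, part of the element that the factor HINFP reads in H4 promoters, stood in 11 of 12 H4 windows, in 1 of 9 H3 windows and in 0 of the H1, H2A and H2B windows, against 8.25% of 32851 promoter windows of the same length. AAACACA stood in 5 of 6 H1 windows, 2 of 17 H2A windows and 1 of 14 H2B windows, against 7.18% of all windows. The octamer ATTTGCAT, which POU factors such as OCT1 bind, stood in 7 of 17 H2A and 5 of 14 H2B windows, against 1.74% of all windows. CCAAT was in every H1, H2A, H2B and H3 window and in 3 of 12 H4 windows, against 37.4% of all windows, and TATAAA ranged between types from 4 of 9 H3 windows to 8 of 12 H4 windows, against 13.6%. Where H2A and H2B genes lie head to head, their windows overlap and 1 match can count for both. Tested H2A and H2B genes with an octamer had a median log2 fold change of 0.60 (10 genes), and those without one had 0.64 (16 genes). Matches of letters are a description and do not show that a factor binds there.

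Sequencing depth ranged from 24646616 to 38315004 counts per library. Over all genes the first principal component (37.4% of the variance) set replicate 3 of both genotypes apart from the other 4 libraries, and the embryonic globin Hbb-y was at 322 CPM (counts-per-million) in mutant replicate 3 and 321 CPM in control replicate 3, against 27.8 to 42.5 CPM in the other 4. Dyrk1a itself was at 186, 159 and 182 CPM in mutants, against 169, 183 and 180 CPM in controls, a log2 fold change of -0.02 (95% interval -0.22 to 0.19; exact two-sided permutation p = 0.90, where the smallest possible is 0.10). Counts over the whole gene do not isolate a deleted part and come from all cells, so they do not check the genotype. The forebrain markers Emx1, Emx2, Dlx1, Dlx2, Dlx5, Neurod2 and Tbr1 passed the filter on low counts.

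Of the 65 histone genes, 56 passed the filter. In edgeR's quasi-likelihood test over 19616 genes, 0 genes (0.00%) passed an adjusted p of 0.05, so no histone gene was called. DESeq2 also called 0. With no adjustment, edgeR put 376 genes and DESeq2 put 261 under 0.05, among them 7 histone genes higher in mutants by edgeR (1.19% of all genes were) and 0 lower (0.729%). Of the tested histone genes, 54 of 56 had a log2 fold change above 0, beside 47.5% of all tested genes. The median over the 56 was 0.57, with single genes between -0.52 and 0.86, and the median over all genes was -0.01. The groups did not overlap in 4 histone genes with mutants higher, beside 3.19% of all genes, and in 0 with mutants lower, beside 3.7%. Since the genes were chosen from this contrast, nothing is read from these counts.

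Library by library, most histone genes moved together, with differences between types in the controls, and the 2 genotypes overlapped. Relative to the control mean, the median histone gene stood at 0.36, 0.83 and 0.82 log2 units in mutant replicates 1, 2 and 3, and at -0.68, -0.09 and 0.75 in control replicates 1, 2 and 3. In this median over all types, control replicate 3 was close to mutants 2 and 3 and above mutant 1, and control replicate 1 was far below every other library. Control replicate 1 was the lowest library for 44 of the 56 genes, beside 14.5% of all genes. By type these were 13 of 14 H2A, 11 of 14 H2B, 12 of 12 H4, 6 of 11 H3 and 2 of 5 H1 genes. The medians of control replicates 1 and 2 were close in H1 (-0.23 and -0.30) and in H3 (-0.31 and -0.29). Among all 56 genes, the highest library was mutant 3 for 29, mutant 2 for 17 and control 3 for 8. Without control replicate 1 the median log2 fold change was 0.29, and without control replicate 3 it was 1.04. Between replicates 1 and 2 of each genotype alone, mutants exceeded controls by 0.98 at the median gene, and in replicate 3, the pair that stood apart over all genes, by 0.04. The 7 forebrain markers named above had library medians of 0.07, 0.07 and 0.12 in mutants, against -0.34, 0.31 and 0.11 in controls. Control replicate 1 was the lowest library for 6 of the 7, as for most histone genes, and lay below control replicate 2 for all 7. Col1a1, a collagen gene of meningeal and mural cells, was instead highest in control replicate 1, at 33.9, 29.6 and 25.3 CPM in mutants, against 73.4, 31.6 and 25.3 CPM in controls. The other 2 genes of the mural and meningeal list, Dcn and Pdgfrb, did not set that library apart. Of the 5 red cell markers, the embryonic globins Hbb-y, Hbb-bh1 and Hba-x were highest in replicate 3 of both genotypes, while Hba-a1 and Alas2 were lowest there. The part of these markers in the histone difference was not tested.

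**Figure D1:**
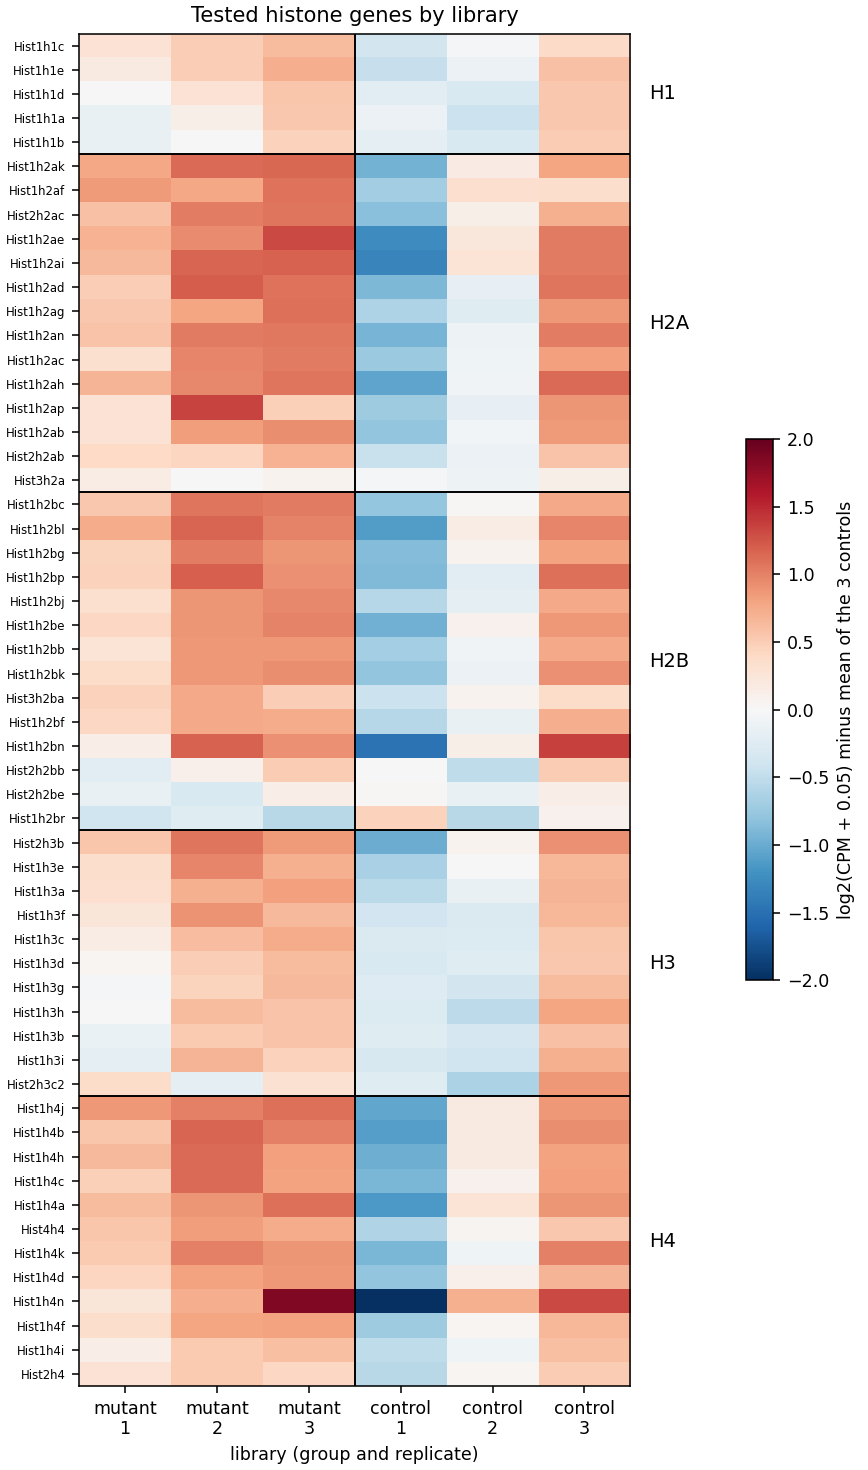
Heat map of the 56 tested histone genes (rows, grouped by type) in 3 mutant and 3 control libraries (columns), coloured by log2 CPM relative to the control mean, with the colour scale cut at 2 on either side. Control replicate 1 is the lowest column, with a median of -0.68, and control replicate 3, at 0.75, is close to mutants 2 and 3 at 0.83 and 0.82.

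The core histones H2A and H4 differed most between libraries and H1 least. Sums over all genes of a type are given because they do not depend on how reads were divided among near-identical copies. They do depend on whether reads shared by several copies were counted at all, which is not known. H2A sums may also depend on the unknown strand setting, since every H2A gene overlaps an annotated gene on the opposite strand. H4 summed to 1144, 1527 and 1438 CPM in mutants, against 457, 867 and 1358 CPM in controls. The mutant sums thus overlapped those of control replicate 3 only. H2A summed to 396, 512 and 550 CPM in mutants, against 163, 284 and 477 CPM in controls. As in H4, mutant replicate 1 lay below control replicate 3, and the other mutants lay above all controls.

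H2B summed to 759, 1039 and 1085 CPM in mutants, against 488, 579 and 1043 CPM in controls. H3 summed to 644, 971 and 924 CPM in mutants, against 447, 496 and 923 CPM in controls. In both types, control replicate 3 reached the level of mutants 2 and 3. H1 summed to 1428, 1700 and 2080 CPM in mutants, against 1145, 1179 and 1969 CPM in controls, so control 3 lay above 2 of the 3 mutants. The highest library held 3.37 times the lowest in H2A, 3.34 times in H4, 2.22 times in H2B, 2.17 times in H3 and 1.82 times in H1. Means were 1370 ± 201 CPM in mutants and 894 ± 451 CPM in controls for H4, and 1736 ± 327 CPM in mutants and 1431 ± 466 CPM in controls for H1 (SD, n = 3 each).

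**Figure D2:**
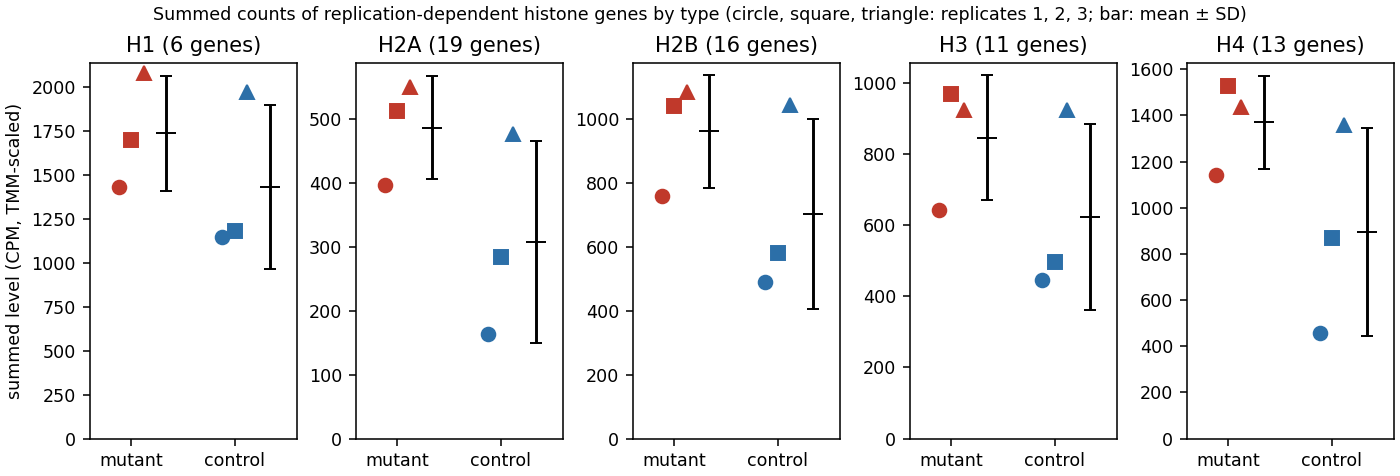
Summed CPM of each histone type, with 1 point per library and mutants left of controls; the black mark beside each group is the mean with its SD. Mutant and control points overlap in every type through control replicate 3, and the lowest point is control replicate 1 in each, for example 457 CPM in H4 and 1145 CPM in H1.

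Because the types differed unequally, the makeup of the histone mRNA pool also varied. H4 made up 26.2%, 26.6% and 23.7% of histone counts in mutants, against 16.9%, 25.5% and 23.5% in controls. H1 made up 32.7%, 29.6% and 34.2% in mutants, against 42.4%, 34.6% and 34.1% in controls. Only control replicate 1 departed from the rest: its ratio of H4 to H3 counts was 1.02, while the ratio was 1.78, 1.57 and 1.56 in mutants and 1.75 and 1.47 in controls 2 and 3. The nucleosome core contains H3 and H4 in equal amounts. A ratio of counts, however, also depends on mRNA length, on capture of short RNA and on whether reads shared between copies were counted.

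**Figure D3:**
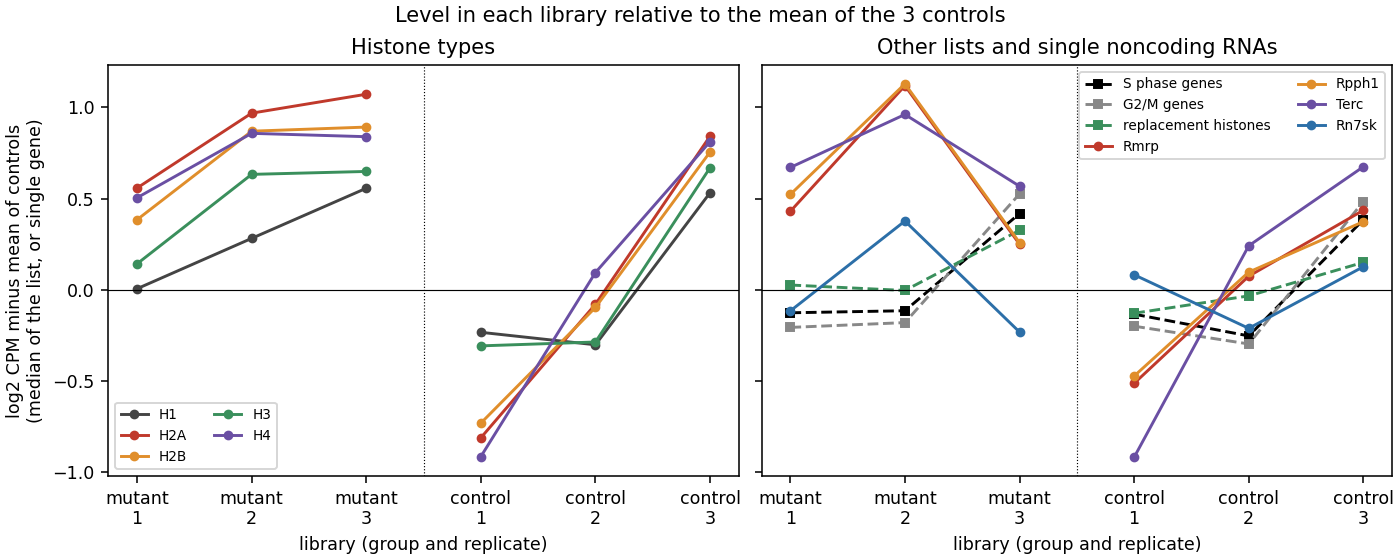
Median log2 CPM relative to the control mean in each of the 6 libraries (mutants left, controls right), for each histone type in one panel and for S phase, G2/M and replacement histone genes and 4 single noncoding RNAs in the other. The lowest points of H4 (-0.91) and H2A (-0.81) are in control replicate 1, while the S phase median is at 0.42 in mutant 3 and 0.38 in control 3 and below 0 in the other 4 libraries.

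The linker histone genes had the smallest differences of the 5 types in their median. All 5 tested H1 genes lay above 0 in log2 fold change, and their median was 0.25. Hist1h1c (chr13:23738808-23740367) was at 337, 391 and 433 CPM in mutants, against 216, 272 and 364 CPM in controls. Its groups overlapped through mutant 1 and control 3, with a log2 fold change of 0.45 ± 0.18 (SE). Hist1h1e was at 299, 373 and 440 CPM in mutants, against 191, 244 and 398 CPM in controls (0.42 ± 0.25), and control 3 exceeded mutants 1 and 2. It overlaps Hist1h2be and Gm11398 on its own strand in the annotation. Hist1h1d, the gene with the highest mean CPM of the type, was at 348, 421 and 510 CPM in mutants, against 295, 281 and 501 CPM in controls (0.25 ± 0.23). Hist1h1b had 221, 246 and 337 CPM in mutants, against 213, 198 and 346 CPM in controls (0.09 ± 0.23). Here 2 controls sat just below the lowest mutant and control 3 was the highest library of all. Hist1h1a was at 223, 268 and 360 CPM in mutants, against 229, 184 and 360 CPM in controls (0.14 ± 0.25). Hist1h1t, the testis form, had at most 16 counts in any library and was not tested.

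All 14 tested H2A genes lay above 0, with a median of 0.68. Hist1h2af (chr13:23533906-23534304) was at 31.5, 30.1 and 37.3 CPM in mutants, against 10.8, 22.1 and 22.5 CPM in controls. It is 1 of the 4 histone genes whose groups did not overlap, and its log2 fold change was 0.84 ± 0.25. Hist1h2ak had the highest log2 fold change of the type, 0.86 ± 0.35. It was at 63.3, 81.7 and 83.0 CPM in mutants, against 19.3, 41.7 and 64.1 CPM in controls, and control 3 lay just above mutant 1.

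Hist1h2ab, the H2A gene with the most counts, was at 69.2, 101 and 108 CPM in mutants, against 32.8, 54.5 and 102 CPM in controls (0.55 ± 0.35). Control 3 again lay among the mutants. Outside the Hist1 cluster, Hist2h2ac was at 39.5, 53.5 and 55.8 CPM in mutants, against 14.8, 28.8 and 43.1 CPM in controls (0.78 ± 0.32), and control 3 again lay above mutant 1. Hist2h2ab was lower, at 11.7, 12.0 and 14.4 CPM in mutants, against 6.50, 8.19 and 13.2 CPM in controls (0.45 ± 0.24). Hist3h2a differed least, with 30.0, 27.0 and 28.4 CPM in mutants, against 26.6, 25.3 and 29.4 CPM in controls (0.07 ± 0.10). Its 6 libraries spanned 0.25 log2 units, against a median span of 1.94 among tested H2A genes. Its annotated exons continue 1643 bases past the stem-loop and overlap Trim17 on the same strand, and a count over the gene does not tell these parts from the short histone mRNA.

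Of the 14 tested H2B genes 12 lay above 0, with a median of 0.57. Hist3h2ba (chr11:58948920-58949533) was at 88.2, 109 and 90.5 CPM in mutants, against 47.5, 67.7 and 82.8 CPM in controls. The groups did not overlap, and the log2 fold change was 0.54 ± 0.18. Hist1h2bc had the highest log2 fold change of the type (0.77 ± 0.33), with 34.3, 49.5 and 48.8 CPM in mutants, against 13.8, 24.0 and 39.7 CPM in controls. Here control 3 exceeded mutant 1. Hist1h2bb was at 137, 205 and 206 CPM in mutants, against 70.2, 107 and 191 CPM in controls (0.57 ± 0.32). Control 3 lay between mutant 1 and mutant 2.

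Hist2h2bb had the highest level per length of all tested histone genes, 596 CPM per kb of its exon model over the 6 libraries. Its model ends at the stop codon, while models of many other genes run on past the stem-loop, so this ranking depends on the annotation. Hist2h2bb was at 181, 226 and 299 CPM in mutants, against 211, 148 and 297 CPM in controls (0.11 ± 0.25). Control 1 was not its lowest library, and the groups were interleaved. It overlaps Gm42743 on its own strand and Gm20628 on the opposite one. The 2 histone genes below 0 were both H2B. Hist2h2be was at 12.1, 10.8 and 14.7 CPM in mutants, against 13.6, 12.0 and 14.6 CPM in controls (-0.10 ± 0.15). Hist1h2br was at 0.457, 0.512 and 0.406 CPM in mutants, against 0.869, 0.405 and 0.659 CPM in controls (-0.52 ± 0.35), and its groups overlapped as well.

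Both genes below 0 have long annotated 3′ parts in which no such stem-loop was found, 2192 bases past the stop codon in Hist2h2be and 1803 in Hist1h2br. Hist1h2bc, with 742 bases past its stop, was the third gene with a longer model and no match, yet it stood at 0.77. Genes with a stem-loop had a median of 0.57 (38 genes). A further 15 genes without a match, whose models end within 60 bases of the stop, had 0.61. Most of these models end at or next to the stop, and short models cannot show whether the mRNA has a stem-loop. H2A and H2B genes often lie head to head around 1 shared promoter stretch, and 10 such pairs with 175 to 301 bases between them were tested. The median absolute difference in log2 fold change within a pair was 0.09. The 2 widest were Hist1h2ap with Hist1h2br (0.64 against -0.52) and Hist2h2ac with Hist2h2be (0.78 against -0.10). In both the partner without a stem-loop match was the lower one, but Hist1h2ap and Hist1h2br had at most 29 counts in any library. Hist1h2bc, also without a match in a longer model, was instead the higher partner of Hist1h2ac (0.77 against 0.67). Hist1h2ah and Hist1h2an, without a match in models that end at or next to the stop, were also the higher partners. They paired with Hist1h2bk (0.64 against 0.56) and with Hist1h2bp (0.68 against 0.64).

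**Figure D4:**
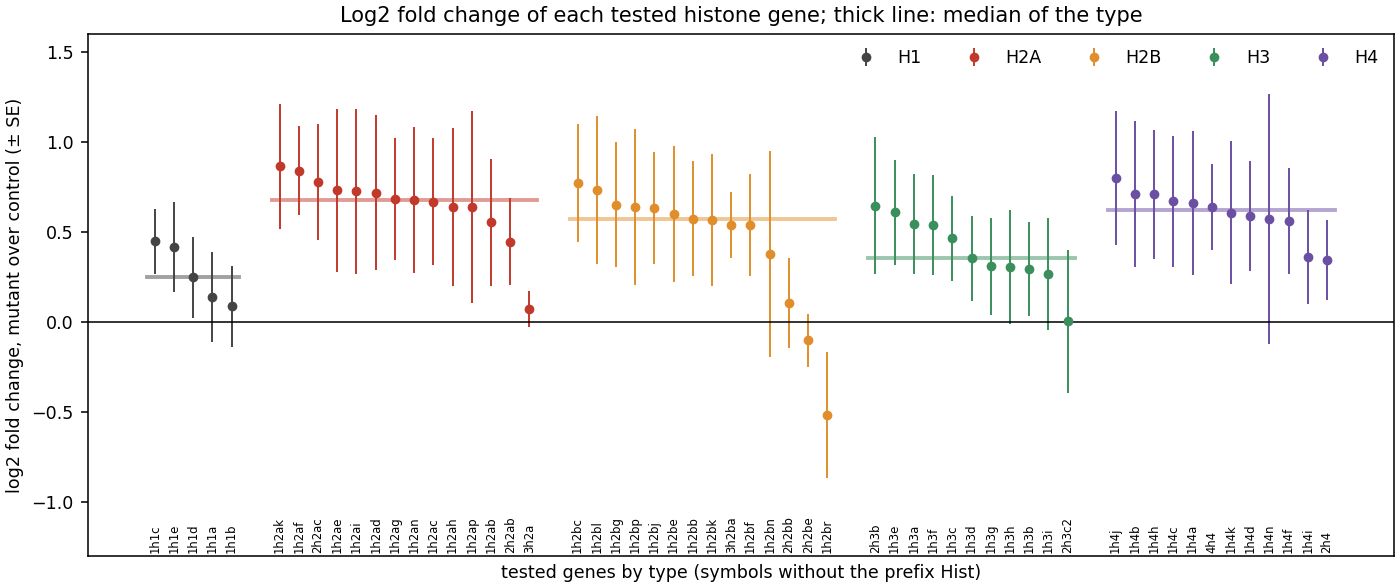
Log2 fold change, mutant over control, of each tested histone gene (points) by type, with standard errors as bars and the median of each type. All but Hist2h2be (-0.10) and Hist1h2br (-0.52) lie above 0, and the type medians run from 0.25 in H1 to 0.68 in H2A.

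All 11 H3 genes were tested and lay above 0, with a median of 0.35. Hist1h3e was at 117, 181 and 151 CPM in mutants, against 58.2, 91.1 and 145 CPM in controls (0.61 ± 0.29). Hist1h3f was at 108, 171 and 143 CPM in mutants, against 70.0, 75.0 and 146 CPM in controls (0.54 ± 0.28). In both genes mutant 1 and mutant 2 exceeded controls 1 and 2, and control 3 overlapped the mutants. Hist1h3b was at 96.4, 152 and 157 CPM in mutants, against 88.5, 83.3 and 158 CPM in controls (0.29 ± 0.26). Among H3 genes it had the most counts per length of the exon model, a measure that depends on where the model ends. Its highest library was control 3.

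In the Hist2 cluster, Hist2h3b was at 36.0, 51.8 and 44.4 CPM in mutants, against 12.4, 25.9 and 46.1 CPM in controls (0.64 ± 0.38). Hist2h3c2 was near the detection filter, at 1.58, 1.06 and 1.51 CPM in mutants, against 1.02, 0.770 and 2.27 CPM in controls (0.00 ± 0.40). The 11 genes translate to 2 proteins. The 7 genes that share the protein of Hist1h3b had a median of 0.46, and the 4 that share that of Hist1h3a had 0.31. The ranges of the 2 sets overlapped, from 0.00 to 0.64 in the first and from 0.27 to 0.54 in the other.

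All 12 tested H4 genes lay above 0, with a median of 0.62, and in all 12 control replicate 1 was the lowest library. Hist1h4j (chr13:21735064-21735837) was at 74.3, 82.1 and 87.3 CPM in mutants, against 19.7, 46.2 and 74.0 CPM in controls. The groups just failed to overlap, between 74.3 CPM in mutant 1 and 74.0 CPM in control 3, and the log2 fold change was 0.80 ± 0.37. Hist4h4 (chr6:136801553-136804415), alone on its chromosome, was at 80.1, 97.6 and 90.9 CPM in mutants, against 35.9, 56.9 and 79.7 CPM in controls. Its groups did not overlap either, by a margin as narrow (0.64 ± 0.24).

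Hist1h4d, with the most counts of the type, was at 262, 338 and 353 CPM in mutants, against 112, 209 and 312 CPM in controls (0.59 ± 0.30). Hist1h4h, with the highest level per length of the exon model in the type at 360 CPM per kb, was at 179, 251 and 201 CPM in mutants, against 57.9, 129 and 199 CPM in controls (0.71 ± 0.36). The model of Hist1h4d runs 770 bases past the stem-loop and that of Hist1h4h 46, so this order depends on the annotation. Hist1h4c was at 146, 230 and 182 CPM in mutants, against 55.5, 111 and 184 CPM in controls (0.67 ± 0.36). In these 3 genes control 3 lay within the mutant range. Hist2h4 differed least of the type, with 94.9, 112 and 104 CPM in mutants, against 53.0, 80.5 and 111 CPM in controls (0.34 ± 0.22). Hist1h4n had the widest span, 3.76 log2 units, with 2.47 CPM in mutant 3 against 0.12 CPM in control 1, on few counts. The 13 H4 genes all translate to 1 identical protein, so these genes differ in mRNA but not in product.

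By cluster, Hist1 had 45 of 46 tested genes above 0 with a median of 0.59, and Hist2 had 6 of 7 with 0.34. The 2 Hist3 genes had a median of 0.30 and Hist4h4 had 0.64. Within Hist1, the 27 tested genes of the distal group (chr13:23531050-23764406) had a median of 0.57 and the 19 of the proximal group (chr13:21715763-22043676) had 0.63. The order of types was nearly the same in both groups, with H2A at 0.72 and H1 at 0.33 in the distal group, and H2A at 0.68 and the single H1 gene at 0.09 in the proximal group. H3 stood below H2A, H2B and H4 in both, at 0.46 and 0.29. These are medians without a test, and the types' single genes overlapped.

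Shorter histone mRNAs tended to vary more between libraries, weakly across genes. From the annotated start to the end of the stem-loop, the median length was 389 bases in H4, 445.5 in H2B, 475.5 in H2A, 526.5 in H3 and 777 in the 3 H1 genes with a stem-loop. The median span over the 6 libraries, taken over all tested genes of a type, was 1.99 log2 units in H4, 1.64 in H2B, 1.94 in H2A, 1.29 in H3 and 0.97 in H1. Across the 38 genes with a stem-loop, length had a Spearman correlation of -0.41 with this span. With the difference between control replicates 2 and 1, a pair chosen after control 1 was seen to be low, it was -0.57. With the log2 fold change of the genotypes it was -0.40. Genes are not independent replicates, share these libraries, and differ in type along with length, so these are descriptions. The correlation of GC content with the log2 fold change was 0.27 across 56 genes, and with removal of GC and length trends over all genes the histone median was 0.43.

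**Figure D5:**
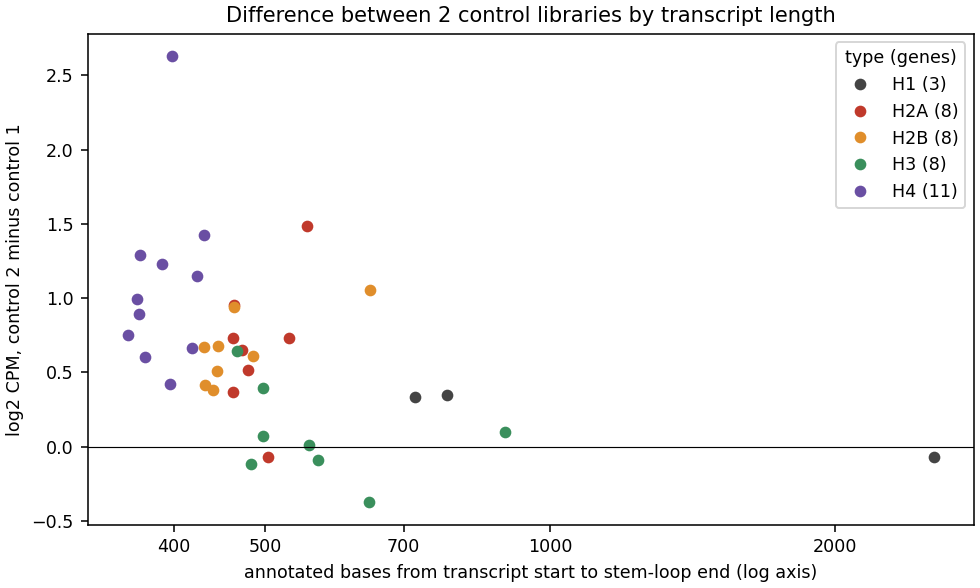
Length from annotated start to stem-loop end (bases, horizontal) of 38 histone genes against the log2 difference between control replicates 2 and 1 (vertical), coloured by type. The shortest mRNAs, those of H4, all lie above 0, and the Spearman correlation across genes is -0.57.

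Some other short RNAs without a poly(A) tail also stood low in control replicate 1, and others did not. These were chosen after their values were seen. Rmrp, the RNA of an RNase that processes ribosomal RNA, was at 3449, 5560 and 3044 CPM in mutants, against 1794, 2696 and 3463 CPM in controls. Rpph1, the RNA of RNase P, was at 4809, 7321 and 4004 CPM in mutants, against 2412, 3580 and 4337 CPM in controls. The Y RNA Rny1 was at 174, 207 and 168 CPM in mutants, against 17.1, 167 and 220 CPM in controls. Another Y RNA, Rny3, was at 182, 306 and 115 CPM in mutants, against 13.4, 167 and 269 CPM in controls. Terc was at 14.4, 17.6 and 13.4 CPM in mutants, against 4.74, 10.7 and 14.4 CPM in controls. Rmrp, Rpph1, Rny3 and Terc were highest in mutant 2, as were 17 of the 56 tested histone genes and 6 of the 12 tested H4 genes. All of these RNAs, with Rny1, were lowest in control 1. Rn7sk, also without a poly(A) tail, was not low there, at 20024, 28173 and 18480 CPM in mutants, against 22970, 18742 and 23683 CPM in controls. Rn7s1, a signal recognition particle RNA, was at 0.246, 0.551 and 0.221 CPM in mutants, against 4.53, 0.324 and 34.6 CPM in controls, and Rn7s2 was at 0.914, 1.61 and 1.22 CPM in mutants, against 0.689, 0.608 and 1.26 CPM in controls. Neither was lowest in control 1, but most of these values lay near the detection filter, so that order is uncertain. The labels call the molecule polyA RNA, while the kit they name depletes ribosomal RNA from total RNA. The part of RNA handling in the histone values was not tested.

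Proliferation genes did not follow the median histone gene in replicates 1 and 2. Between those replicates, mutants exceeded controls by 0.04 at the median S phase gene, against 0.98 over all tested histone genes. The types differed in this, with 0.41 in H1, 0.66 in H3 and 1.14 in H4, and Hist1h1b alone had 0.18. The 25 S phase genes, such as Mcm2 and Pcna, had a median log2 fold change of 0.05 with 0 called, beside 0.00% of all genes. Their medians relative to the control mean were -0.13, -0.11 and 0.42 in mutants, against -0.13, -0.25 and 0.38 in controls. The 13 G2/M genes had a median of 0.07, at -0.21, -0.18 and 0.53 in mutants, against -0.20, -0.30 and 0.48 in controls. Both lists were thus highest in replicate 3 of each genotype, but control 1 did not stand apart from mutants 1 and 2. The 6 radial glia markers had a median of 0.15 and the 4 neuron markers -0.12, with 0 called in either, beside 0.00% of all genes. By library, the radial glia medians were 0.01, 0.14 and 0.38 in mutants, against -0.15, -0.20 and 0.32 in controls. Groups did not overlap in 1 radial glia marker, Sox2, beside 3.19% of all genes with mutants higher. Sox2 was at 76.6, 72.4 and 110 CPM in mutants, against 58.9, 71.1 and 66.1 CPM in controls (0.40 ± 0.16). The endothelial, microglial, choroid plexus and mural lists, of 3 genes each, had medians between -0.03 and 0.20, with Col1a1 farthest from 0 at -0.55 ± 0.35.

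Genes that make and handle histone mRNA and protein had medians near 0. Slbp was at 50.8, 48.9 and 73.5 CPM in mutants, against 51.0, 47.9 and 63.8 CPM in controls (0.09 ± 0.17). Npat was at 55.2, 50.3 and 62.6 CPM in mutants, against 59.0, 55.1 and 60.2 CPM in controls (-0.05 ± 0.10). The 15 tested genes of histone transcription and processing had a median of -0.00 and the 11 histone chaperones 0.01. In both lists 0 were called, beside 0.00% of all genes. A p that misses the threshold does not show that they were equal.

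The replacement histones, whose mRNAs are polyadenylated and made outside S phase too, had a median of 0.07 over 11 tested genes of 12. Of these 0 were called, beside 0.00% of all genes. H3f3a was at 493, 421 and 549 CPM in mutants, against 534, 473 and 448 CPM in controls (0.01 ± 0.12). H2afx, whose gene can also give a stem-loop mRNA, was at 46.9, 47.4 and 60.5 CPM in mutants, against 21.4, 37.2 and 45.9 CPM in controls (0.57 ± 0.24). Control 1 was its lowest library, as in most replication-dependent genes. Its groups did not overlap, which held for only 4 of the 56 tested replication-dependent genes. H2afj had 0.33 ± 0.11 and H1fx 0.43 ± 0.24, also with groups that did not overlap.

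The histone genes share sequence, which limits single values. Among tested genes, the share of 50-base stretches found in no other gene's transcripts ranged from 6.08% to 100% with a median of 50.6%, and 26 genes lay under 50%. Of the 30 with at least 50%, an added criterion, 29 lay above 0. Across the 56 tested genes, the share had a Spearman correlation of 0.48 with mean CPM. The 9 untested genes had a median share of 10.2%. They were Hist1h1t, Hist1h2aa and Hist1h2ba, known from testis, the annotated pseudogenes Hist1h2aj and Hist1h2al, and Hist1h2ao, Hist2h2aa2, Hist1h2bq and Hist1h4m. Apart from Hist1h1t, none of them exceeded 8 counts in a library. Hist2h2aa2, with 0% unique stretches, had 0, 1 and 1 counts in mutants and 0 in each control, which at such overlap does not tell its expression.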

How the data were processed

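Each library was 1 forebrain sample sequenced single-end. Per the labels' protocols, libraries were made with a stranded total RNA kit with ribosomal RNA removal. Per the submitters' processing notes, bcl2fastq 2.17.1.14, HISAT2 on GRCm38, SAMtools 1.9 and HTSeq 0.9.1 were used. Not given in the sources used here are the strand setting and the treatment of reads that match several genes. Near-identical and overlapping histone genes are therefore uncertain. Another gene on the opposite strand is annotated for every H2A gene but for few genes of the other types. The limit from the unknown strand setting thus falls mainly on H2A. The deposited values are raw counts per gene, not normalized.

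Symbols and transcripts came from GENCODE M21 on GRCm38 (32888 of 33084 identifiers matched), and promoters from RefSeq. Columns of other samples numbered 0. Annotated symbols Hist1h2bh, Hist1h2bm, Hist2h2aa1 and Hist2h3c1 matched no identifier in the deposited counts, so the type sums leave them out. The test was edgeR 4.0.16's quasi-likelihood test in R 4.3.3 with TMM scaling, filterByExpr (count minimum 10, total minimum 15) and Benjamini-Hochberg adjustment at 0.05, over all genes, with no covariate. It was tested on simulated data. CPM are TMM-scaled, and errors of fold changes are standard errors. Alternatives used DESeq2 1.42.0 and limma 3.58.1, other scaling, no filter, each library left out, a replicate block, replicates 1 and 2 only, sample weights, and removal of GC and length trends. Figures were drawn with matplotlib 3.10.9.

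Named genes were, per type, the 3 with the highest mean CPM and those with the highest and lowest fold change, every tested gene outside Hist1, and every gene whose groups did not overlap. Others are named for a sequence feature, a pair or a wide span, chosen after their values were seen. The histone genes and all lists were chosen with earlier results of these data known. Hist3h2bb-ps was left out by the rule. One gene of the forebrain marker list is not reported here, and its list is summarised over the other 7.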

Additional observations from a re-analysis of the deposited data

How the results depend on the processing

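The count of genes called was 0 under every alternative except with replicates 1 and 2 only. There edgeR called 3 (1544 at an unadjusted p under 0.05), among them the H2A gene Hist1h2ag (log2 fold change 1.10). With all 6 libraries Hist1h2ag stood at 0.68 ± 0.34 and was not called. The histone genes were chosen from this contrast, and this setting leaves out replicate 3 of both genotypes, so nothing is read from that call. Leaving out each library in turn gave 0 called and histone medians of 0.29 to 1.04. The type medians then ranged from 0.04 to 0.57 in H1, 0.32 to 1.30 in H2A, 0.29 to 1.14 in H2B, 0.20 to 0.81 in H3 and 0.28 to 1.17 in H4, with the highest values without control replicate 3. Between 49 and 55 histone genes then lay above 0. limma-voom with sample weights gave H4 a median of 1.25. Among genes with at least 50% unique stretches, a setting chosen after seeing the data, 29 lay above 0 of 30 such genes. Removal of GC and length trends gave 0.43 with 51 genes above 0. Scaling moved the median of all genes by less than 0.1.

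Same-numbered mutant and control libraries had correlations of 0.24, 0.07 and 0.36 in their deviations, and mutant 1 correlated best with control 2, so the numbers were not taken to pair the samples. With a replicate block, edgeR called 0 genes (765 unadjusted), and the histone median was 0.68. No median of the histone genes or of a type changed sign under any alternative, and of 378 alternative values of the 27 named genes, 38 were below 0. With 3 libraries per group, the spread between controls limits every histone value.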
